A study of Drosophila melanogaster with 24 samples.

Results

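The fatty acid synthesis genes of the fly head are described here in males trained to suppress courtship. The list held 7 genes of the pathway (FASN1, FASN2, ACC, ATPCL, AcCoAS, Desat1 and SREBP) and was matched to the table by FlyBase symbol. Of these, 6 were found among 17559 rows, and 5 passed the filter on low values that left 10547 genes for testing. The member below the filter was FASN2, and FASN1, whose current identifier was not matched to a row, was not analysed here. In the 1X trained group a virgin male spent 1 session of 2 h with an unreceptive female, and the 1X mock group was handled without that training. The 3X trained group had 3 such sessions with 30 min between them, and the 3X mock group was the matching control. Males were kept singly from shortly after eclosion as adults, and no strain, transgene or drug is named in their labels. Each group had 6 flies, and each of the 24 libraries came from the poly(A) RNA of 1 head, taken 1 h after the last session.

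Fatty acids are built in the cytosol from acetyl-CoA. ATP citrate lyase (ATPCL) makes acetyl-CoA from citrate, and acetyl-CoA synthetase (AcCoAS) makes it from acetate. Acetyl-CoA carboxylase (ACC) turns it into malonyl-CoA, the committed step, and fatty acid synthases such as FASN1 and FASN2 condense these units into saturated chains with NADPH. Desat1 then places a double bond in the chain, a step that also serves the making of cuticular hydrocarbons, among them courtship pheromones. SREBP is the membrane-bound transcription factor that, once cleaved, switches on lipid synthesis genes, and in flies it responds to lipid rather than to sterol supply. In adult flies the fat body and the oenocytes are the best known sites of this pathway, and the head holds its own fat body around the brain.

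The libraries held 18929289 to 41403289 reads as recovered from the deposited values, and log2 values of flies of 1 group correlated at 0.969 to 0.993. Testis transcripts stood apart in 1 fly: the summed level of 11 testis markers was 95.0 RPKM in 3X mock replicate 6 and 0.542 to 1.17 RPKM in the other flies. Neuronal, glial and photoreceptor markers were present in every head, with summed levels of 275 to 336, 965 to 1321 and 12485 to 16057 RPKM. Some of these markers were called in the comparisons where members were. In 3X mock against 1X mock flies all 5 photoreceptor markers were positive and trp (log2 difference 0.41, limma adjusted p = 0.000112) and ninaC (0.20, 0.0151) were called higher, and in 1X trained against 1X mock flies the glial gene wrapper was called lower (-0.33, 0.042). Their part in the results of the members was not tested. The 3X groups also differed from the 1X groups in clock transcripts, since all 7 core clock genes on a fixed list passed the test between mock groups, 5 higher and 2 lower in 3X mock flies. The number of sessions therefore cannot be told apart from the time of day of collection wherever a 3X group is set against a 1X group.

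The pathway was present at very unequal levels in the head, on a per-length scale (RPKM, reads scaled to gene length and library size). Desat1 averaged 2226 RPKM over the 24 flies and ranked 22 of all rows, with 0.199% of the tested genes above it. AcCoAS averaged 452 RPKM, ATPCL 118 RPKM, ACC 62.2 RPKM and SREBP 55.3 RPKM. Even the lowest of the 5, SREBP, had only 14.1% of the tested genes above it. FASN2 averaged 0.595 RPKM, from 62 to 399 reads per fly, and reached 1 RPKM in 1 of 24 flies. In this order Desat1 and AcCoAS did not overlap with their neighbours in any fly, for the lowest AcCoAS value was 218 RPKM and the highest ATPCL value 214 RPKM. The ranges of ATPCL, ACC and SREBP overlapped in turn.

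How much the members varied between flies followed another order. The highest fly had 3.24 times the lowest for ATPCL, 2.89 times for AcCoAS and 2.82 times for ACC, but 1.75 times for Desat1 and 1.36 times for SREBP. Among flies treated alike the SD of log2(RPKM) was 0.33 for AcCoAS, 0.32 for ATPCL and 0.27 for ACC, against 0.2 for Desat1 and 0.1 for SREBP. The transcription factor was thus the steadiest of the measured members, and the enzymes that supply acetyl-CoA and malonyl-CoA were the most variable of the 5 tested. FASN2, at few reads, spread more widely still, by 5.28 times between the lowest and the highest fly.

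In dm6 coordinates of the Ensembl 115 annotation, ATPCL lies on 2R from 15993531 to 16001290 (minus strand) and ACC on 2R from 7974115 to 7991862 (minus strand). AcCoAS lies on 3L from 21270722 to 21280243 (minus strand), Desat1 on 3R from 12439600 to 12447616 (plus strand) and SREBP on 3L from 19793935 to 19798979 (plus strand), where it holds mir-33 and overlaps CG14102 on the other strand. FASN2 lies on 2L from 3043947 to 3056143 (plus strand) and ends 454 bases before FASN1. All are protein-coding genes counted over their exons. The libraries did not keep the strand, so where exons of 2 genes overlap their reads cannot be told apart. Overlap was read here from whole gene spans, and whether exons overlap was not examined. By span ACC overlaps Nup44A, a nuclear pore gene on the other strand with a mean of 22.8 RPKM. In the same way ATPCL overlaps CG8320 (17.8 RPKM) and Tmem131 (3.98 RPKM).

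**Figure D1:**
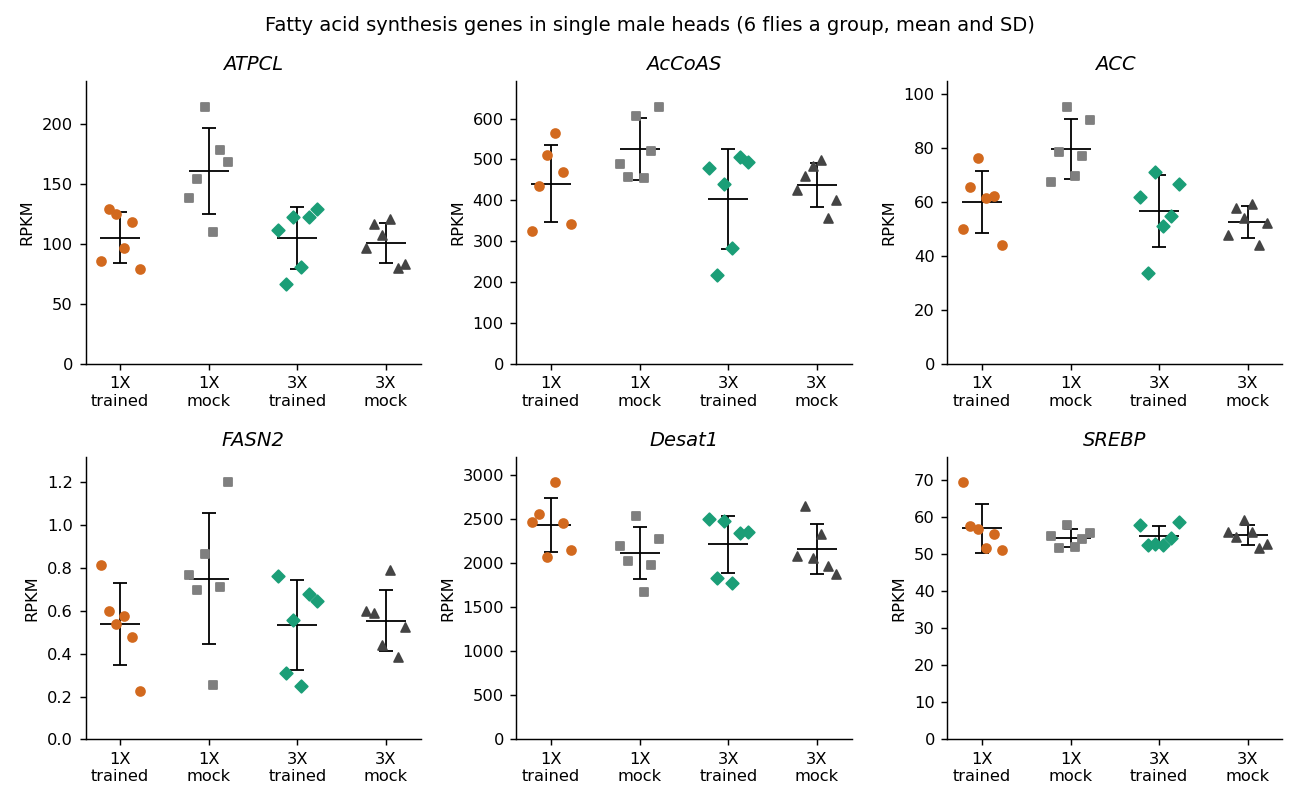
RPKM of the 6 measured genes (vertical axes, starting at 0) in the 4 groups of 6 flies, with 1 point per fly and a bar for the mean and SD. For ATPCL and ACC the 1X mock flies stood above most flies of the other groups, with means of 160.3 and 79.7 RPKM, whereas SREBP stayed between 51.2 and 69.4 RPKM in all 24 flies.

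The effect of a single session was read from 1X trained against 1X mock flies. ATPCL was the member that fell. It had 78.7, 107 and 129 RPKM (lowest, median and highest fly) in 1X trained heads, against 109.5, 161 and 214 RPKM in 1X mock heads. Of the 6 trained flies 3 lay below every mock fly, 5 of the 6 mock flies lay above every trained fly, and the lowest mock fly overlapped with the trained group. The means were 105 ± 21.2 RPKM in 1X trained and 160.3 ± 35.6 RPKM in 1X mock heads (SD, n = 6 each), a ratio of 0.657. The difference of mean log2(RPKM + 1) was -0.59 (SE 0.17, 95% interval -0.96 to -0.23, limma adjusted p = 0.0493). This call sat at the threshold. It was lost in 10 of the 12 fits that left out 1 fly of these groups (adjusted p 0.0268 to 0.111), the exceptions being those without 1X trained replicate 2 and without 1X mock replicate 4, and in 4 of 8 other settings: no filter (0.083), only these 12 flies (0.0586), a pseudocount of 0.1 (0.0501) and a block on the replicate number (0.0602), which was not taken to pair flies.

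ACC, the enzyme after ATPCL in the pathway, did not pass. It had 44.1, 61.9 and 76.3 RPKM in 1X trained heads, against 67.4, 77.7 and 95.3 RPKM in 1X mock heads. In 5 of 6 trained flies the value was below that of every mock fly, and 1 trained fly lay inside the mock range. The means were 59.9 ± 11.5 and 79.7 ± 11.1 RPKM (SD, n = 6 each), and the log2 difference was -0.42 (SE 0.15, 95% interval -0.72 to -0.11, limma adjusted p = 0.1). For Nup44A, which shares its locus, the log2 difference was -0.24 (limma adjusted p = 0.142).

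AcCoAS, which feeds the same acetyl-CoA pool from acetate, had 324, 453 and 564 RPKM in 1X trained heads, against 454, 505 and 629 RPKM in 1X mock heads. The groups overlapped, and the log2 difference of -0.27 had an interval across 0 (95% interval -0.64 to 0.10, limma adjusted p = 0.421). Desat1 had its values on the other side, with 2065, 2454 and 2911 RPKM in 1X trained and 1666, 2107 and 2527 RPKM in 1X mock heads. Its log2 difference of 0.21 did not pass either (95% interval -0.03 to 0.44, limma adjusted p = 0.309), and after quantile normalization it was 0.40 (adjusted p 0.0747). SREBP had 51.2, 56.0 and 69.4 RPKM in 1X trained heads, against 51.8, 54.5 and 58.0 RPKM in 1X mock heads. With a log2 difference of 0.06 (95% interval -0.06 to 0.18, limma adjusted p = 0.597) its interval was the narrowest of the members. FASN2 was low in both groups, with 0.227, 0.557 and 0.816 RPKM in 1X trained and 0.255, 0.74 and 1.2 RPKM in 1X mock heads, and did not differ beyond the spread between flies (difference of mean log2 -0.18, exact two-sided permutation p = 0.212, 0.442 after Benjamini-Hochberg adjustment over its 4 comparisons). When 1 fly was left out, the exact permutation p of FASN2, not adjusted, was 0.0173 to 0.411 here and 0.0173 to 0.433 between the mock groups. Both lowest values came without 1X mock replicate 4, the lowest 1X mock fly in FASN2.

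Of the 5 tested members 1 was called in this comparison, and it was lower. Among all tested genes 4.94% were called and 2.19% were called lower. The median log2 difference of the members was -0.27, beside 0.002 over all tested genes. At an unadjusted p below 0.05 stood 2 members, ATPCL and ACC, and 2195 of all tested genes.

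After 3 sessions none of the members was called. ATPCL had 66.0, 116 and 129 RPKM in 3X trained heads, against 79.6, 102 and 120.1 RPKM in 3X mock heads. ACC had 33.8, 58.4 and 71.2 RPKM in 3X trained heads, against 43.9, 53.2 and 59.3 RPKM in 3X mock heads. For both genes 3 trained flies lay above every mock fly and 1 lay below them all, so the trained group was the wider. The log2 differences were 0.04 for ATPCL (95% interval -0.32 to 0.40, limma adjusted p = 0.93) and 0.07 for ACC (95% interval -0.23 to 0.38, limma adjusted p = 0.825).

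AcCoAS had 218, 458 and 505 RPKM in 3X trained heads, against 356, 442 and 499 RPKM in 3X mock heads (log2 difference -0.18, 95% interval -0.55 to 0.20, limma adjusted p = 0.616). Here 2 trained flies, replicates 2 and 4, lay below all mock flies. Without 3X trained replicate 2 the log2 difference of AcCoAS was -0.01 and that of ACC 0.21 (limma adjusted p 0.976 and 0.356). Desat1 had 1772, 2342 and 2494 RPKM in 3X trained and 1874, 2064 and 2646 RPKM in 3X mock heads (log2 difference 0.03, limma adjusted p = 0.915). SREBP had 52.5, 53.6 and 58.6 RPKM in 3X trained and 51.7, 55.3 and 59.3 RPKM in 3X mock heads (log2 difference -0.01, 95% interval -0.13 to 0.11, limma adjusted p = 0.959). For both genes the groups overlapped. FASN2 had 0.251, 0.603 and 0.763 RPKM in 3X trained and 0.384, 0.558 and 0.791 RPKM in 3X mock heads (difference of mean log2 -0.03, exact two-sided permutation p = 0.792). Among all tested genes 2.27% were called here, and 2235 stood at an unadjusted p below 0.05, beside 0 of the 5 members by either measure.

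Whether training acted differently under the 2 schedules was tested as the 3X effect minus the 1X effect. For ATPCL this was 0.64 (SE 0.25, 95% interval 0.13 to 1.15, limma adjusted p = 0.297) and for ACC 0.49 (SE 0.21, 95% interval 0.06 to 0.92, limma adjusted p = 0.353). Neither passed over all genes, so the effect of 1 session on ATPCL is not shown to differ from that of 3. It was 0.09 for AcCoAS, -0.18 for Desat1 and -0.07 for SREBP (limma adjusted p 0.931, 0.725 and 0.8). The count was 0 of 5 members, against 0.171% of all tested genes, while at an unadjusted p below 0.05 stood 2 members and 1228 genes.

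**Figure D2:**
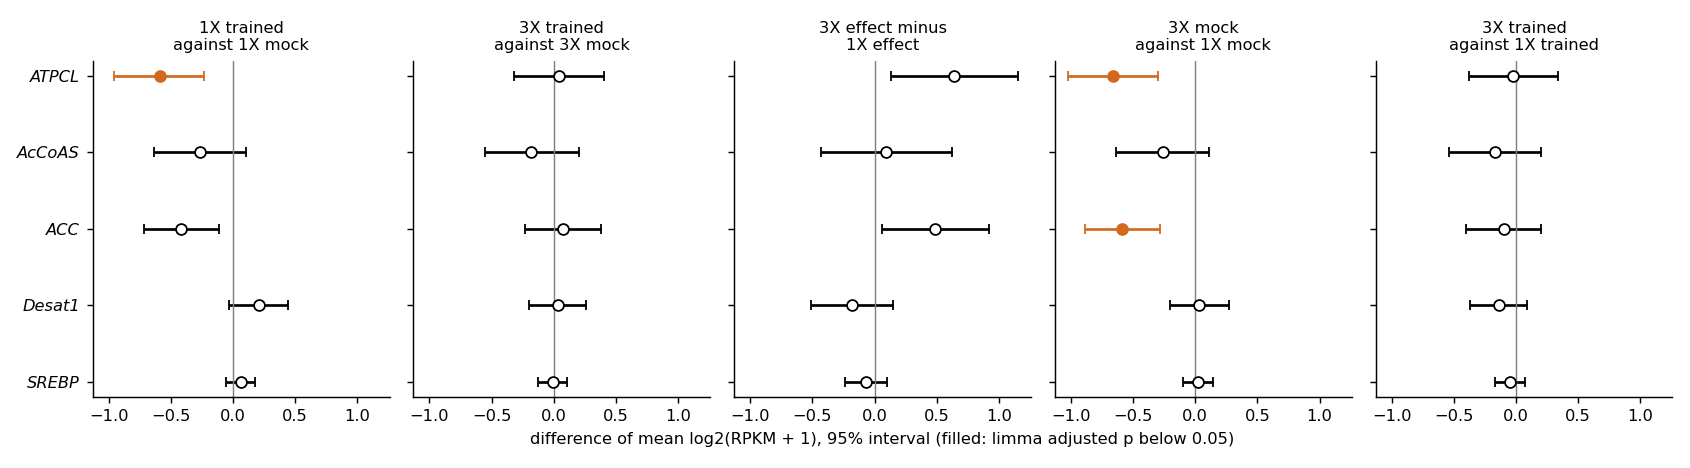
Difference of mean log2(RPKM + 1) for the 5 tested members (points) with its 95% interval (bars) in the 5 comparisons, filled where the limma adjusted p was below 0.05. ATPCL against 1X mock (-0.59 in 1X trained and -0.66 in 3X mock flies) and ACC in 3X mock against 1X mock flies (-0.59) were called, and every interval of SREBP lay within -0.24 to 0.18.

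The mock groups were set against each other to see what differed between the schedules without training, with the time of collection differing too, and here both ACC and ATPCL were called. ACC fell to 43.9, 53.2 and 59.3 RPKM in 3X mock heads, against 67.4, 77.7 and 95.3 RPKM in 1X mock heads, and all 6 flies of 3X mock lay below all 6 of 1X mock. The means were 52.6 ± 5.88 RPKM in 3X mock heads and 79.7 ± 11.1 RPKM in 1X mock heads (SD, n = 6 each), a ratio of 0.66, and the log2 difference was -0.59 (SE 0.15, 95% interval -0.89 to -0.28, limma adjusted p = 0.0198). How many of all tested genes separated as fully as ACC is not given here. ATPCL fell as well, with 79.6, 102 and 120.1 RPKM in 3X mock heads, against 109.5, 161 and 214 RPKM in 1X mock heads. There 4 flies of 3X mock lay below every 1X mock fly and 5 of 1X mock lay above every 3X mock fly. The means were 100.4 ± 16.8 and 160.3 ± 35.6 RPKM (SD, n = 6 each), and the log2 difference was -0.66 (SE 0.17, 95% interval -1.02 to -0.30, limma adjusted p = 0.0291).

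The call of ACC was lost when 1X mock replicate 3 (adjusted p 0.0532) or 3X mock replicate 5 (0.058) was left out. That of ATPCL was lost without the filter (0.0509) and without any of 6 flies, namely replicates 3, 5 and 6 of 1X mock and 1, 5 and 6 of 3X mock (0.0545 to 0.0845), so it was lost without 3X mock replicate 6, the fly with testis transcripts (0.0785), whereas ACC was still called without that fly (0.0404). Nup44A, whose reads cannot be told apart from those of ACC wherever their exons overlap, was itself called lower in 3X mock than in 1X mock flies (log2 difference -0.40, limma adjusted p = 0.0126).

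The other members did not pass. AcCoAS had 356, 442 and 499 RPKM in 3X mock heads, against 454, 505 and 629 RPKM in 1X mock heads, with 3 flies of 3X mock below every 1X mock fly (log2 difference -0.26, 95% interval -0.64 to 0.11, limma adjusted p = 0.492). The log2 difference was 0.03 for Desat1 (95% interval -0.20 to 0.27, limma adjusted p = 0.924) and 0.02 for SREBP (95% interval -0.10 to 0.14, limma adjusted p = 0.92), and -0.16 for FASN2 (exact two-sided permutation p = 0.221). Thus 2 of 5 members were called, both lower, where 4.34% of all tested genes were called and 2.34% were called lower. The median of the members was -0.26, beside 0.006 over all tested genes. This comparison and that of 1X trained with 1X mock flies share the same 6 mock flies, in which ATPCL and ACC had their highest means of the 4 groups, so the 2 results are not independent. It also shares the 3X mock flies with the comparison after 3 sessions.

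In trained flies, which do not share these controls, no member was called between the schedules. ATPCL averaged 105 ± 25.8 RPKM in 3X trained and 105 ± 21.2 RPKM in 1X trained heads, and ACC 56.5 ± 13.4 RPKM in 3X trained and 59.9 ± 11.5 RPKM in 1X trained heads (SD, n = 6 each). The log2 differences were -0.02 for ATPCL (95% interval -0.38 to 0.34), -0.10 for ACC (95% interval -0.40 to 0.20), -0.17 for AcCoAS, -0.14 for Desat1 and -0.05 for SREBP (limma adjusted p 0.465 to 0.959). For FASN2 the difference of mean log2 was -0.01 (exact two-sided permutation p = 0.957). In this comparison 11.1% of all tested genes were called and 0 of 5 members, and at an unadjusted p below 0.05 stood 2761 genes and 0 members.

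Between flies treated alike the levels of ATPCL, AcCoAS and ACC went together. Over the deviations of the 24 flies from their group means, Pearson's r was 0.87 between ACC and ATPCL, 0.84 between ACC and AcCoAS and 0.82 between ATPCL and AcCoAS. Within the groups r of ACC with ATPCL was 0.82 to 0.91. The SD of the log2 ratio of ACC to ATPCL over all flies was 0.16, although each alone had an SD of 0.35 and 0.41 on the log2 scale. For SREBP the relation turned on 1 fly. Its r over the 24 flies was 0.22 with ACC, 0.33 with ATPCL and 0.16 with AcCoAS. Within 1X trained flies these were -0.07, -0.03 and -0.50, whereas in the other 3 groups they were 0.48 to 0.67 with ACC, 0.59 to 0.74 with ATPCL and 0.67 to 0.87 with AcCoAS. Without 1X trained replicate 1, the fly far above its group in SREBP, a setting added after the values were seen, r over 23 flies was 0.57, 0.71 and 0.58. Desat1 lay between, with r of 0.56 with ACC and 0.67 with ATPCL and with AcCoAS, and in 1X trained flies its r with ACC was 0.05. The r of FASN2 was highest with Desat1, at 0.73. These are descriptions over flies that share a library preparation and, in each library, 1 depth and 1 scaling factor. The r of each member with log2 of the library's reads was -0.16 to 0.20.

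A few flies stood at the ends of the range in several members at once. Replicate 2 of 3X trained was the lowest of all 24 in ACC (33.8 RPKM), ATPCL (66.0 RPKM) and AcCoAS (218 RPKM), and replicate 4 of the same group was the next lowest of its group in all 3. Replicate 3 of 1X mock was the highest of all 24 in ACC (95.3 RPKM) and ATPCL (214 RPKM). Replicate 5 of 3X mock was the lowest of its group in 5 of 6 measured members, all but Desat1.

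**Figure D3:**
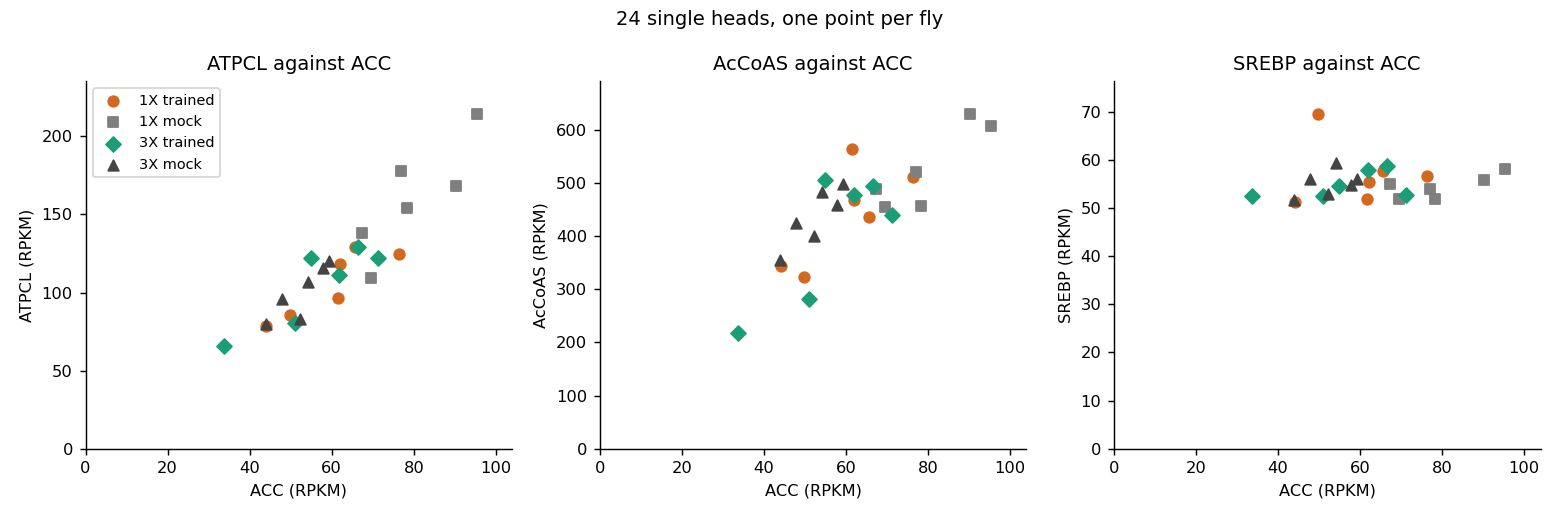
RPKM of ATPCL, AcCoAS and SREBP (vertical axes) against RPKM of ACC (horizontal axes) in each of the 24 heads, with 1 point per fly and a colour and shape per group. ATPCL and AcCoAS went up with ACC across flies (r of the deviations from group means 0.87 and 0.84), and SREBP kept to a narrow range (r 0.22, and 0.57 without the 1X trained fly at 69.4 RPKM).

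The genes whose deviations from group means were most like those of each member over the 24 flies came from several functions. For ACC they were Nurf-38 (inorganic pyrophosphatase, r 0.9), ATPCL (0.87) and Nup44A (0.86), the last being the gene that overlaps it. For ATPCL they were Roc2 (0.89), a ubiquitin ligase component, and the trehalose transporter genes Tret1-1 (0.89) and Tret1-2 (0.88), both of which lie within the span of Roc2 on the other strand and may share its reads. For AcCoAS they were GstE9 (a glutathione transferase, 0.89), Nurf-38 (0.88) and CG2736 (0.88). For Desat1 they were CtsK1 (0.83), its paralog and near neighbour Desat2 (0.82, mean 1.48 RPKM) and CG12159 (0.8), and reads of such paralogs can be split between them. For SREBP they were lig (0.88), CG3356 (0.87) and asRNA:CR43429 (0.86). No other member was among the 3 of ATPCL, AcCoAS, Desat1 or SREBP.

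The genes around the pathway were read from fixed lists. Beside their counts of calls stand the shares of all tested genes called. These were 4.94% in 1X trained against 1X mock flies, 2.27% after 3 sessions and 0.171% for the difference between schedules. Between mock groups the share was 4.34%, and between trained groups 11.1%. Whether any list held more calls than these shares was not tested. Citrate and NADPH supply (7 of 7 tested) was mostly below 0 in the comparisons with 1X mock flies, with 1 call. In 3X mock against 1X mock flies all 7 log2 differences were negative (median -0.22) and 1 was called, Men, the cytosolic malic enzyme that yields NADPH. Men averaged 497 ± 114 RPKM in 3X mock heads and 855 ± 194 RPKM in 1X mock heads (SD, n = 6 each; log2 difference -0.79, limma adjusted p = 0.0344), a call lost without replicate 1, 3 or 6 of 1X mock or 3, 5 or 6 of 3X mock (adjusted p up to 0.103) and without the filter. In 1X trained flies Men averaged 611 ± 173 RPKM (log2 difference from 1X mock -0.51, limma adjusted p = 0.17), and 5 of the 7 differences were negative (median -0.28) with 0 called. After 3 sessions 0 of 7 were called (median 0.07).

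Glycerolipid assembly, which joins fatty acids to glycerol (11 of 11 tested), had 3 genes called in 1X trained against 1X mock flies, all higher. The glycerol-3-phosphate acyltransferase gene mino averaged 70.0 ± 14.9 RPKM in 1X trained and 41.1 ± 12.4 RPKM in 1X mock heads (SD, n = 6 each; log2 difference 0.77, limma adjusted p = 0.00744). Agpat4, which acts on the next intermediate, averaged 10.5 ± 3.15 and 6.75 ± 0.741 RPKM (log2 difference 0.54, limma adjusted p = 0.0426). Dgat2, which completes triacylglycerol, had 4.08, 5.64 and 20.1 RPKM in 1X trained heads, against 2.04, 3.33 and 3.84 RPKM in 1X mock heads (log2 difference 0.94, limma adjusted p = 0.0406), and the groups did not overlap. How many of all tested genes had groups apart in this way is not given here. The calls of Dgat2 and Agpat4 were not stable. That of Dgat2 was lost without replicate 1, 2 or 3 of 1X trained or 4, 5 or 6 of 1X mock (adjusted p up to 0.0898), and that of Agpat4 without the same trained flies or any 1X mock fly (up to 0.0926), whereas mino was called without any single fly (0.00103 to 0.0215). The median of the list was 0.03, with 6 differences positive and 5 negative. In 3X mock against 1X mock flies 1 was called, Agpat2 (log2 difference -0.43, limma adjusted p = 0.0126), and in 3X trained against 1X trained flies 2 were called, mino (-0.77, 0.00315) and Agpat2 (-0.42, 0.00925), all lower. After 3 sessions 0 were called. Agpat4 (0.42, limma adjusted p = 0.115) and Dgat2 (0.58, 0.208) were positive there too, and mino was negative (-0.23, 0.44). The 3X effect minus the 1X effect was -0.12 for Agpat4, -0.37 for Dgat2 and -1.0 for mino (limma adjusted p 0.887, 0.768 and 0.0771). None of these passed, so the effects are not shown to differ between schedules.

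Chain extension and further desaturation (31 listed, 30 in the table, 17 tested) acts on finished fatty acids. In 1X trained against 1X mock flies 2 genes of the elongase family were called higher, CG31523 (log2 difference 0.24, limma adjusted p = 0.00768) and CG33110 (0.43, 0.0406), with a list median of 0.02. Between the mock groups CG31523 (0.25, 0.00429) and CG31522 (0.26, 0.0435) were higher. In 3X trained against 1X trained flies, where 11.1% of all tested genes were called, CG31522 was higher (0.30, 0.0108) and CG33110 lower (-0.41, 0.028). The call of CG33110 after 1 session was lost in 10 of 12 fits without 1 fly, all but those without 1X trained replicate 2 or 1X mock replicate 6 (adjusted p 0.0275 to 0.0884), and that between trained groups without 1X trained replicate 4 or replicates 1, 2 or 5 of 3X trained (up to 0.0741). The call of CG31522 between mock groups was kept only without replicate 1 of either group (0.0301 to 0.115). After 3 sessions 0 were called. The 3X effect minus the 1X effect was -0.24 for CG31523 and -0.31 for CG33110 (limma adjusted p 0.148 and 0.496), and neither passed.

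SREBP processing and nutrient control (14 listed, 13 tested) had 1 gene called in 1X trained against 1X mock flies, foxo, the transcription factor held back by insulin signalling. It averaged 15.5 ± 2.57 RPKM in 1X trained and 20.0 ± 1.7 RPKM in 1X mock heads (SD, n = 6 each; log2 difference -0.36, limma adjusted p = 0.0225), and the call was lost without 1X trained replicate 2 or 1X mock replicate 6 (adjusted p up to 0.0565). The lipase gene bmm, which fasting and foxo raise in flies, had 10.5, 18.9 and 37.9 RPKM in 1X trained heads, against 44.8, 47.0 and 76.1 RPKM in 1X mock heads. Its groups did not overlap, but with a log2 difference of -1.35 (SE 0.42) it did not pass (limma adjusted p = 0.0662), and it is named here after its values were seen. The share of all tested genes whose groups did not overlap is not given here. The AMPK subunit gene alc was lower in 3X mock than in 1X mock flies (-0.23, limma adjusted p = 0.00324) and in 3X trained than in 1X trained flies (-0.30, limma adjusted p = 0.000176). Between the trained groups SCAP, which escorts SREBP to its proteases (-0.13, limma adjusted p = 0.038), and bigmax (-0.16, limma adjusted p = 0.0349) were lower too. These 2 calls were lost in 8 and 7 of 12 fits without 1 fly (adjusted p up to 0.0972 and 0.0728), and the calls of alc in none. The list medians in the 5 comparisons were between -0.12 and 0.01.

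Fatty acid oxidation (11 of 11 tested) had 1 gene called, scu, a mitochondrial hydroxyacyl-CoA dehydrogenase gene. It averaged 166 ± 9.63 RPKM in 1X trained and 196 ± 10.4 RPKM in 1X mock heads (SD, n = 6 each; log2 difference -0.24, limma adjusted p = 0.0111), and 157 ± 13.4 RPKM in 3X mock heads (log2 difference from 1X mock -0.32, limma adjusted p = 0.000584). Both calls held without any single fly. Between the mock groups 9 of the 11 differences were negative in 3X mock flies (median -0.11).

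**Figure D4:**
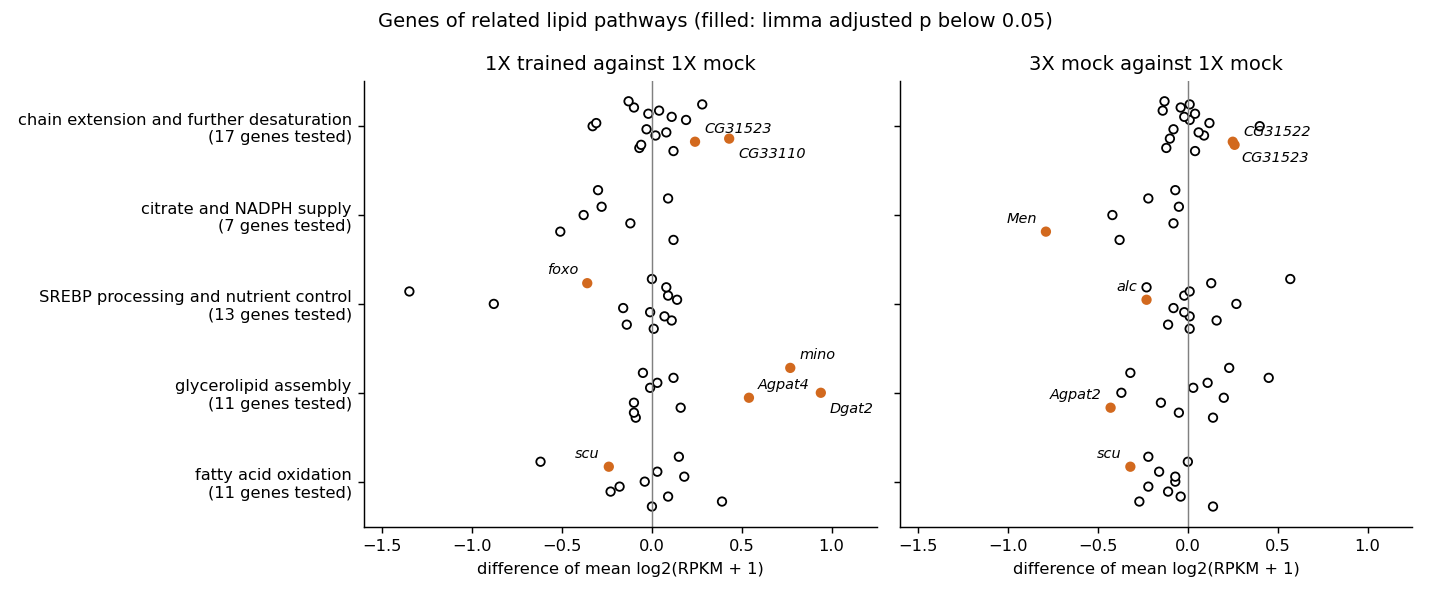
Difference of mean log2(RPKM + 1) of each tested gene on 5 lists of related lipid pathways (rows, with the points of a row spread vertically for legibility only) in 1X trained against 1X mock flies (left) and 3X mock against 1X mock flies (right), filled and named where the limma adjusted p was below 0.05. All 7 genes of citrate and NADPH supply lay below 0 on the right with Men at -0.79, and the called genes of glycerolipid assembly on the left (mino, Agpat4 and Dgat2) lay at 0.54 to 0.94.

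Fat body markers had a lower median sum in 1X trained and in 3X mock heads than in 1X mock heads. Their median sum was also lower in 3X trained heads than in 3X mock or 1X trained heads. No marker was called lower in any of these comparisons, and between the trained groups apolpp was called higher in 3X trained heads (log2 difference 0.30, limma adjusted p = 0.0183). The summed level of the 6 markers (apolpp, Apoltp, Lsd-1, Tsf1, to and Lsp2) was 1337 to 10011 RPKM in 1X trained, 6702 to 12494 RPKM in 1X mock, 2776 to 7298 RPKM in 3X trained and 4777 to 9745 RPKM in 3X mock heads, with medians of 6248, 9217, 3919.5 and 7075 RPKM. The storage protein gene Lsp2 had the highest mean of the 6 in every group, with 3485, 6229, 2243 and 4651 RPKM in 1X trained, 1X mock, 3X trained and 3X mock heads, but it ranged over 46.8 to 9020.2 RPKM between flies. In 1X trained against 1X mock flies 5 of the 6 log2 differences were negative and 1 marker was called, Apoltp, which was higher. Between the mock groups 5 of 6 were negative and 0 were called. After 3 sessions 3 of 6 were negative and 3 positive (median 0.15), and 0 were called. Apoltp, Lsd-1 and to had higher means in 3X trained than in 3X mock heads, and apolpp, Tsf1 and Lsp2 lower ones. The lower sum there was thus not shared by all markers. Replicate 3 of 1X mock, the highest in ACC and ATPCL, also had the highest fat body sum. For r the mean log2(RPKM + 1) of the 6 markers was used in place of the sum. Over deviations from group means, its r with the members was 0.44 for AcCoAS, 0.38 for ATPCL, 0.23 for ACC, 0.21 for Desat1, 0.02 for FASN2 and -0.40 for SREBP. In whole heads fewer cells of a type and less RNA per cell cannot be told apart, and the part of fat body content in the result of ATPCL and ACC was not tested.

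A list of 6 midgut genes, taken as the mean of their log2(RPKM + 1), had the highest r with FASN2 (0.84), Desat1 (0.69) and SREBP (0.68), and 0.35 to 0.52 with ACC, AcCoAS and ATPCL. Its summed RPKM came nearly all from Amy-p, an amylase gene, with means of 125, 113, 57.3 and 58.9 RPKM in 1X trained, 1X mock, 3X trained and 3X mock heads, and its trypsin and Jon protease genes were at or near 0. Mal-A1, the remaining gene, had means of 3.54, 3.96, 3.69 and 4.8 RPKM in the same order and ranged over 0.173 to 5.73 RPKM. Which of these genes carried the r was not tested. Replicate 1 of 1X trained had 319.5 RPKM of Amy-p and was the highest of all 24 flies in SREBP (69.4 RPKM). The oenocyte marker Cyp4g1 was at 0.30 RPKM or less in all heads but 1X trained replicate 4, at 4.34 RPKM, which was also the highest fly in Desat1 (2911 RPKM). The other measured oenocyte marker, spidey, was at 81.6 to 108 RPKM over all heads. In 1X trained flies the highest sum of these 2 markers was that of replicate 3. Their mean log2(RPKM + 1) had an r of 0.31 with Desat1. The part of the midgut genes and oenocyte markers in the levels of the members was not tested.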

How the data were processed

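Single male heads (24, in 4 groups of 6) were sequenced as non-stranded SMART-Seq v4 libraries. The authors deposited 1 table of RPKM values for 17559 genes. The submitters' processing notes name bcl2fastq 2.18, TopHat2 2.0.13, edgeR 3.18.1 and dm6. RPKM are not counts, so limma 3.58.1 in R 4.3.3 was fitted to log2(RPKM + 1) of all 24 flies with 1 mean per group (eBayes with trend), with a filter of 1 RPKM or more in 6 or more flies, which left 10547 genes. The study's count test was therefore not used as the main test. This scale understates changes of low genes. Tests were two-sided, and a gene was called where its p, adjusted by Benjamini-Hochberg over all tested genes, was below 0.05. FASN2, below the filter, was tested by exact permutation over 924 splits.

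RPKM values were turned back into reads with Ensembl 115 exon lengths (16284 genes) or fitted lengths (708 genes), and all 16992 genes above 0 gave whole numbers within 0.02. Reads carry no molecular identifiers, so depth covers counting error only. The fits were also run on simulated data with independent normal noise for each gene. That setting holds no correlation between genes and no outlying flies, so it cannot show how stable the calls given here are.

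The members, the 6 pathway lists and the 9 marker lists were chosen with earlier results of these data known. Named genes were the members, up to 3 called genes per list and comparison by smallest p, and for each member the 3 genes most like it over the 24 flies. Gene symbols came from the gene-name table provided (17253 rows matched). Labels number the flies of a group 1 to 6, and p-values measure the spread between single flies. Alternatives were a pseudocount of 0.1, no filter, median-ratio scaling, quantile normalization, only the groups compared, a replicate block, array weights, voom on the recovered reads, and leaving out each fly. No sequences are printed.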

Additional observations from a re-analysis of the deposited data

Results flagged for a closer look

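In SREBP, 1X trained replicate 1 stood apart from its group at 69.4 RPKM, with a gap to the nearest fly of 0.646 of the group's range, above Dixon's critical share for 6 values. This was 1 of 24 groups examined (6 members in 4 groups), where chance alone gives about 1.2.

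The training effect on scu differed between schedules: the 3X effect minus the 1X effect was 0.4 on the log2 scale (limma adjusted p = 0.0349), with scu at 175 RPKM in 3X trained and 157 RPKM in 3X mock heads, and at 166 RPKM in 1X trained and 196 RPKM in 1X mock heads (means, n = 6 each). It was lost in 9 of 24 fits without 1 fly (adjusted p 0.00698 to 0.0734).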

How the results depend on the processing

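The member calls were few and close to the threshold. In 1X trained against 1X mock flies 1 member was called, and 0 without the filter, with only the groups compared, with a pseudocount of 0.1 and with a replicate block (0 to 1 when 1 fly was left out). In 3X mock against 1X mock flies 2 members were called, 1 without the filter, and 0 to 2 when 1 fly was left out. In the other 3 comparisons 0 members were called in any of the alternatives, leaving out a fly included. The count of all genes called in 1X trained against 1X mock flies was 521, 894 with array weights, 345 without the filter and 302 (without 1X mock replicate 5) to 503 when 1 fly was left out. After 3 sessions it was 239, 382 with array weights, 109 without the filter, 54 with only the groups compared and 26 (without 3X trained replicate 3) to 612 (without 3X trained replicate 6) when 1 fly was left out. For the difference between schedules it was 18, 120 with array weights, 9 without the filter, 8 with a replicate block and 3 (without 1X trained replicate 2) to 107 (without 1X trained replicate 1) when 1 fly was left out. In 3X mock against 1X mock flies it was 458 and 728 with array weights, and in 3X trained against 1X trained flies 1172 and 568 with only the groups compared. With a replicate block the calls of Agpat4 in 1X trained flies, of Men and CG31522 between mock groups, of SCAP between trained groups and of scu between schedules were also lost. Without the filter the calls of CG33110, Dgat2 and Agpat4 in 1X trained flies, of CG31522 and Men between mock groups and of SCAP between trained groups were lost. With only the groups compared those of foxo, Dgat2 and Agpat4 in 1X trained flies and of CG33110, bigmax and SCAP between trained groups were lost, the last 3 also with array weights, and after quantile normalization that of scu between schedules. The cause was not tested.

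Changes of sign occurred only near 0. The 3X effect minus the 1X effect of AcCoAS was -0.06 after quantile normalization. When 1 fly was left out, log2 differences ranged from -0.03 to 0.17 (ATPCL), -0.01 to 0.09 (Desat1), -0.03 to 0.01 (SREBP) and -0.07 to 0.03 (FASN2) after 3 sessions, from -0.03 to 0.09 (Desat1) and 0.0 to 0.04 (SREBP) between mock groups, and from -0.18 to 0.04 (ACC), -0.1 to 0.1 (ATPCL), -0.08 to 0.01 (SREBP) and -0.07 to 0.05 (FASN2) between trained groups. Flies with 1 number did not deviate together: r over all genes was -0.24 to 0.15, with 0, 0, 1 and 2 of 6 pairs above 0.1 in the 4 pairs of groups, so numbers were not taken to pair flies. Depth limits FASN2, with 62 to 399 reads per fly.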
